A study of Oryza sativa with 10 samples.

Results

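The short arms of rice chromosomes 4 and 10 held 390 of the 33382 accessible sites found by ATAC-seq in rice (Oryza sativa) seedlings, 173 of them on chromosome 4 and 217 on chromosome 10. Peaks of all 10 deposited lists that overlapped by at least 1 bp were merged into one site, and a site counted as a short-arm site when its midpoint lay between 1 and 7.7 Mb on chromosome 4 or between 1 and 6.2 Mb on chromosome 10. The 3227 sites on the long arms, from 18 to 34.5 Mb on chromosome 4 and from 12 to 22.2 Mb on chromosome 10, were the reference. All positions refer to the MSU7.0 build, the japonica genome to which the authors aligned their reads.

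Heterochromatin is chromatin that stays condensed through the cell cycle, is rich in transposable elements and repeats and poor in genes. In rice, the short arms of chromosomes 4 and 10 are known for heterochromatin that spreads along most of the arm, while their long arms are largely euchromatic and carry most of the genes. ATAC-seq uses the Tn5 transposase, which inserts sequencing adapters where DNA is accessible, so that a peak marks a stretch that was open in part of the cells. Histone marks and DNA methylation were not analysed here, and these lists could show only the sparse peaks described next. Fewer open sites and fewer reads that could be placed cannot be told apart there, because the mappable length of the arms is unknown.

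The seedlings were of the indica cultivar YD6 and germinated in darkness. The labels give 5 groups with 2 peak lists each, which are an ABA treatment, an IAA treatment and a light series of dark, dark to light 8h and dark to light 24h. Abscisic acid (ABA) is a hormone of dormancy and water stress, indole-3-acetic acid (IAA) is the main natural auxin, and both were sprayed shortly before 24 h of light, so their groups were set against 24 h of light. Mock-sprayed seedlings were not analysed here, which leaves the hormone and its carrier together in each hormone group.

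The lists held 12659 to 25302 peaks, fewest with ABA and most in the dark. The labels number the 2 lists of a group as replicates 1 and 2, and the authors describe 2 biological replicates. By the values below, the 2 lists of a group nevertheless shared most of their tags on the short arms as elsewhere. At short-arm sites with a peak in both lists of a group, the chi-square per site between their tag counts was 0.0106 to 0.0952, against 0.540 to 0.971 between lists of different groups, where independent counting noise gives a value near 1. The summit fell on the same base at 37.1% to 83.0% of the sites within a group, against 2.19% to 8.63% between groups. The values between groups also lay below 1, so 1 is only a rough yardstick here. The lists of a group differed far less than lists of different groups and were counted as 1 sample. Every comparison below therefore sets 1 sample against 1 sample, with no replicate check, no SD and no test. Intervals are 95% Wilson intervals for shares, Newcombe intervals for differences of shares and order-statistic intervals for medians. They cover counting error over sites only.

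Accessible sites were sparse and narrow on the short arms. There were 32.8 sites per Mb on the short arms and 121 per Mb on the long arms. The contrast was wider on chromosome 4, with 25.8 sites per Mb on its short arm and 136 on its long arm, than on chromosome 10, with 41.7 on its short arm and 97.0 on its long arm. The median distance from a short-arm site to its nearest neighbour was 3559 bp, against 1577 bp on the long arms, and 27.7% of short-arm sites against 39.1% of long-arm sites had a neighbour within 1 kb. Short-arm sites were also narrower, with a median width of 203.5 bp against 239 bp. Only 3 of the 390 reached 800 bp, against 57 of the 3227 on the long arms. Other sparse parts were alike in width. The median was 211 bp in 1 Mb windows of the other chromosomes with at most 40 sites. Between the arms of chromosomes 4 and 10 it was 209 bp. A neighbour within 1 kb was found at 21.4% and 27.7% of the sites of these 2 parts.

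Of the 390 short-arm sites, 112 had a peak in all 10 lists, a share of 28.7% (24.5% to 33.4%), against 25.0% (23.6% to 26.6%) on the long arms, where the same was true of 808 sites. The difference of 3.68 points had an interval from -0.85 to 8.58 and so was not separated from 0. On chromosome 4 the shares were 25.4% on the short arm and 25.3% on the long arm, and on chromosome 10 31.3% on the short arm and 24.4% on the long arm. Over the whole genome 28.5% of sites were called in all 10 lists, so the short-arm share lay at the background. At the other end, 52 short-arm sites (13.3%) had a peak in 1 list only, against 12.6% on the long arms.

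Summits of different lists lay closer together on the short arms. Among sites with a single peak in every list, the summits of the 10 lists lay within 50 bp of each other at 47 of 105 short-arm sites, or 44.8% (35.6% to 54.3%), against 171 of 712 long-arm sites, or 24.0% (21.0% to 27.3%). The median spread of the summits was 57 bp on the short arms and 91 bp on the long arms. The widths differed in the same direction, as given above, and their part in this was not tested.

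The strongest site of all on the short arms was chr10:2759013-2759498, chosen, like the others named here, by a rule on strength, width or isolation. The values given for it and for every site below are tags over the summit, meaning the number of tags that pile up at the highest point of the peak. They are not scaled, although the relative library size ran from 0.517 in a dark list to 0.929 in an ABA list. The order of the groups at a site can therefore depend on the scale. This strongest site had 156 and 156 tags with ABA, 155 and 152 with IAA, and 161 and 158 in the dark, 159 and 160 at 8 h and 169 and 169 at 24 h. These values spanned 152 to 169 tags over the 10 lists, and they stood on a high background of 42.0 background units, where the lowest background of any peak was 6 units. The background is that of the control track against which all 10 lists had been called, whose origin is not given in the sources used here.

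A short distance away on chromosome 10 lay the widest short-arm site, chr10:2756256-2757501, with a width of 1246 bp and up to 2 peaks in a list. It was also the runner-up in strength on that arm, with 158 and 157 tags with ABA, 146 and 150 with IAA, and 151 and 152 in the dark, 161 and 161 at 8 h and 169 and 169 at 24 h. Only 141 bp from it lay chr10:2755934-2756114, which was one of the 8 sites gained at 8 h. That small site had 37 and 35 tags with ABA and 26 and 28 with IAA, and in the light series no peak in the dark, 46 and 50 tags at 8 h and 44 and 47 at 24 h. The cluster thus held sites present in every list beside one that was absent only in the dark lists.

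The strong sites were named from those with a peak in all 10 lists, so their presence in every group was set by the rule. Sites as strong that lacked a peak in some groups are given with the gains and losses. Site chr10:4616516-4616730 had 90 and 89 tags with ABA, 64 and 69 with IAA, and 87 and 84 in the dark, 93 and 96 at 8 h and 107 and 109 at 24 h. In unscaled tags it was therefore lowest with IAA and highest at 24 h. On chromosome 4 the strongest site with a peak in all lists was chr4:2086053-2086328, with 137 and 138 tags with ABA, 119 and 123 with IAA, and 138 and 139 in the dark, 144 and 148 at 8 h and 151 and 152 at 24 h.

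Its neighbour 452 bp away, chr4:2085422-2085600, had 108 and 109 tags with ABA, 92 and 100 with IAA, and 98 and 101 in the dark, 113 and 113 at 8 h and 128 and 124 at 24 h. Both neighbours thus had their highest unscaled tags at 24 h. Site chr4:5608415-5608870 went the other way, with its highest values of 63 and 61 tags in the dark, and with 49 and 48 tags with ABA, 55 and 54 with IAA, 49 and 48 at 8 h and 50 and 51 at 24 h. The widest site of that arm, chr4:4647727-4648565, spanned 839 bp, held up to 3 peaks in a list and had 35 and 34 tags with ABA, 33 and 26 with IAA, and 33 and 30 in the dark, 43 and 43 at 8 h and 33 and 35 at 24 h.

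Some sites present in every list lay far from any other. The most isolated site with a peak in all lists on chromosome 10, chr10:3118760-3119101, lay 92703 bp from its nearest neighbour and had 25 to 35 tags in all 10 lists. On chromosome 4, chr4:4176702-4176944 lay 79912 bp from its neighbour. It had 42 and 40 tags with ABA, 36 and 34 with IAA, and 34 and 34 in the dark, 22 and 22 at 8 h and 22 and 21 at 24 h. In unscaled tags the light-only lists were the low ones at this site, and the ABA lists the high ones.

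**Figure D1:**
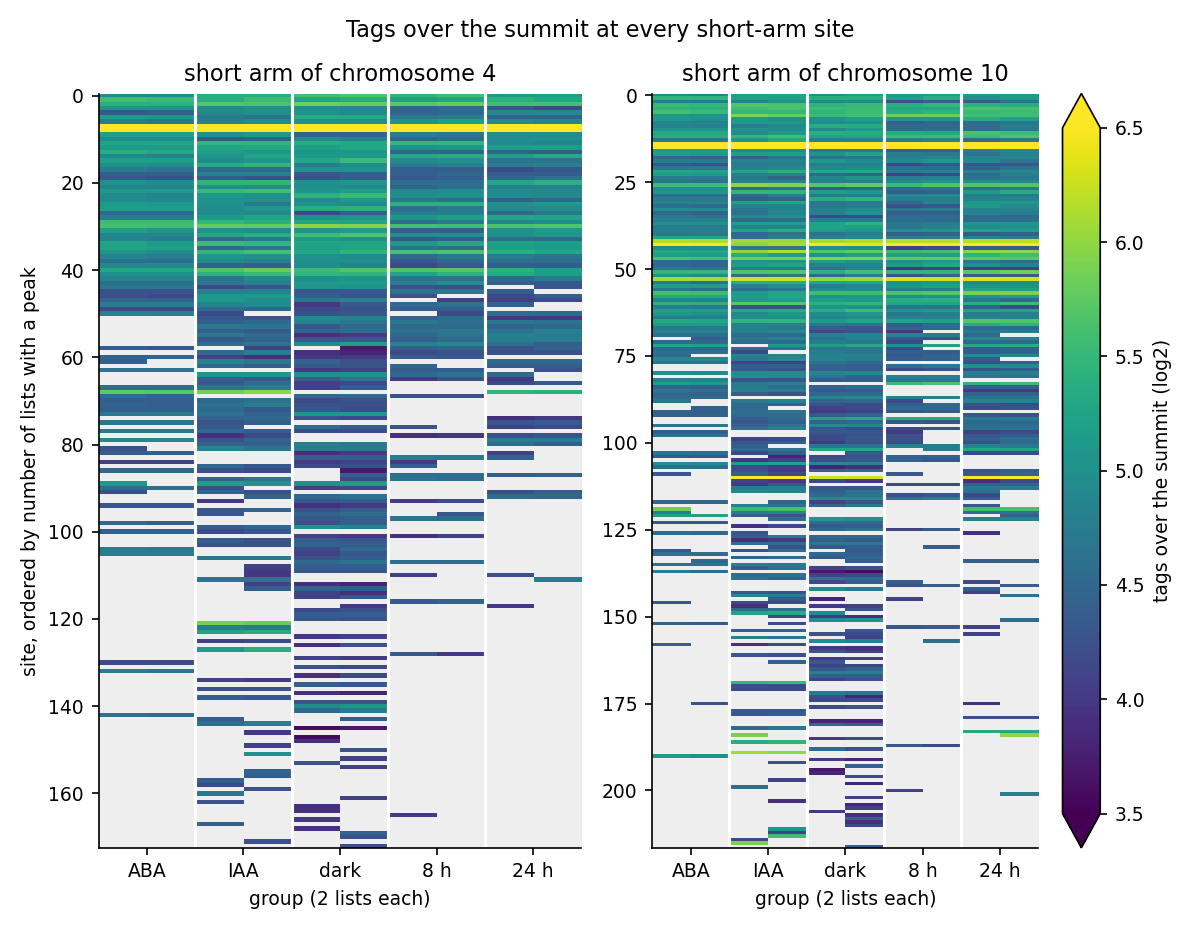
Tags over the summit (log2, colour) at the 173 short-arm sites of chromosome 4 and the 217 of chromosome 10, one row per site, with the 2 lists of each group side by side and grey where a list had no peak; colours are capped at both ends of the scale. The rows at the top of each panel have a peak in all 10 lists, and the grey area in the lower rows is smallest in the dark and IAA columns.

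The number of short-arm peaks followed the groups. There were 190 and 181 short-arm peaks with ABA and 262 and 270 with IAA. The light series had 286 and 304 short-arm peaks in the dark, 188 and 175 at 8 h and 208 and 196 at 24 h. The long arms had 1121 and 1050 peaks with ABA, 2253 and 2323 with IAA, and 2265 and 2383 in the dark, 2057 and 1987 at 8 h and 1893 and 1736 at 24 h. Peak numbers also depend on how many tags a list needs for a call. At the lowest background a call took 16 tags with ABA, 13 with IAA, 11 in the dark and 13 or 14 at 8 h and at 24 h. The share of arm peaks that lay on the short arms, which sets both arms of one list against each other, was compared next. This share also changed with the length of the lists and is not free of the call limit.

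Whole seedlings were used, so fewer nuclei with an open site and fewer tags from each such nucleus cannot be told apart in any value below. In the dark 11.3% of the arm peaks lay on the short arms (10.1% to 12.5%, from the mean of the 2 lists), at 8 h 8.24% (7.16% to 9.46%) and at 24 h 10.0% (8.78% to 11.4%). The share at 8 h minus that in the dark was -3.03 points (-4.69 to -1.35). Between these groups the number of short-arm peaks at 8 h was 0.615 times that in the dark, while the number of long-arm peaks was 0.870 times that in the dark. The share at 24 h minus that at 8 h was 1.78 points (0.0429 to 3.54), with 1.11 times as many short-arm peaks and 0.897 times as many long-arm peaks. The share at 24 h minus that in the dark was -1.25 points (-3.02 to 0.558), an interval that includes 0. The lists were also cut to equal length, the 12659 peaks of each with the lowest q-values. There the difference from the dark was -6.45 points at 8 h and -4.39 points at 24 h.

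With ABA the short arms held 14.6% of the arm peaks (12.8% to 16.6%), against 10.0% at 24 h, and in the lists as deposited this was the highest share of the 5 groups. In lists of equal length the share with ABA minus that at 24 h was 3.95 points and the share at 24 h minus that in the dark was -4.39 points, so that the dark then had the highest share. The share with ABA minus that at 24 h was 4.58 points (2.28 to 6.97). The number of short-arm peaks with ABA was 0.918 times that at 24 h, while that of long-arm peaks was 0.598 times. Other sparse parts of the genome had the same order of groups in their share of a list, as given below. With IAA the share was 10.4% (9.29% to 11.7%), against the same 10.0% at 24 h, and its difference from 24 h was 0.398 points (-1.39 to 2.15). The short arms had 1.32 times and the long arms 1.26 times as many peaks with IAA as at 24 h.

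The arms of the 2 chromosomes differed in level and shared the direction of the largest differences. On chromosome 4 the short arm held 9.43% of the arm peaks with ABA, 6.54% with IAA, and 7.43% in the dark, 5.09% at 8 h and 5.69% at 24 h. On chromosome 10 it held 24.2% with ABA, 18.4% with IAA, and 18.7% in the dark, 15.1% at 8 h and 18.7% at 24 h. The share at 8 h was below that in the dark by a difference of -2.33 points on chromosome 4 (-4.00 to -0.654) and of -3.64 points on chromosome 10 (-7.30 to 0.114), where the interval reaches 0. ABA minus 24 h was 3.74 points on chromosome 4 (1.47 to 6.19) and 5.54 points on chromosome 10 (0.649 to 10.6). The share at 24 h minus that at 8 h was 0.591 points on chromosome 4 (-1.07 to 2.29) and 3.60 points on chromosome 10 (-0.379 to 7.59). Both of these intervals include 0.

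**Figure D2:**
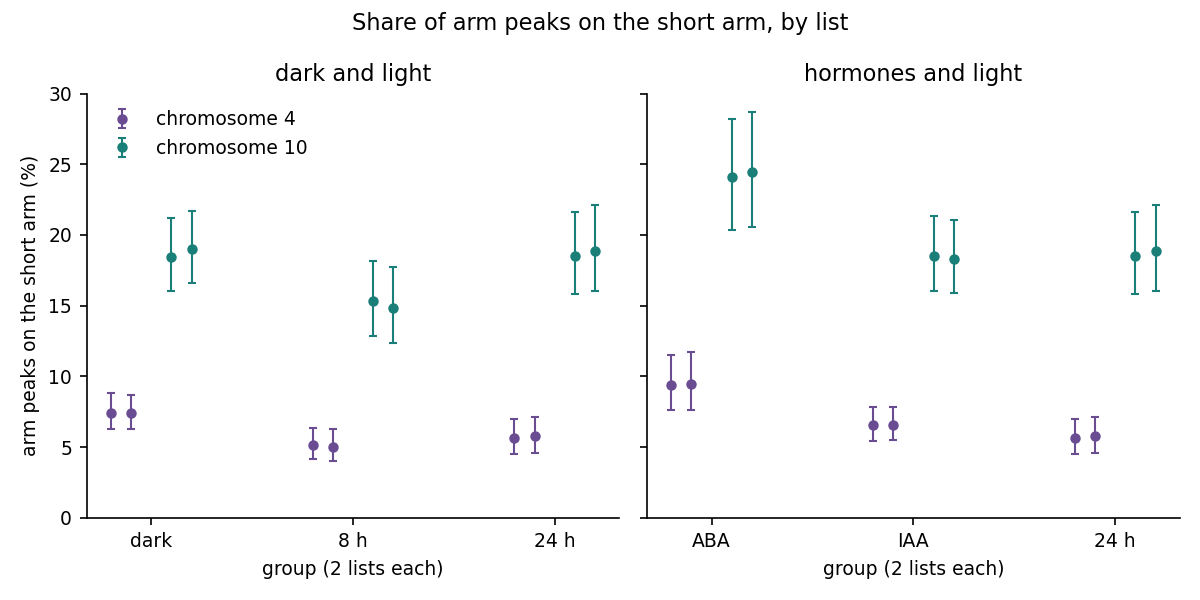
Share of arm peaks on the short arm (per cent, y axis) in each of the 2 lists of a group, for chromosome 4 and chromosome 10, with 95% Wilson intervals for counting error. The 8 h points lie below the dark points on both chromosomes, and the ABA points are the highest in these lists as deposited, at 9.37% and 9.49% on chromosome 4 and 24.1% and 24.4% on chromosome 10.

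Along the arms, the difference between 8 h and dark was seen in every window. In the 13 windows of 1 Mb that cover the short arms, which held 7 to 57 sites each, the mean number of peaks at 8 h was 0.333 to 0.864 times that in the dark, lower in 13 of 13 windows. At 24 h it was lower than in the dark in 12 of 13 windows. The exception was the innermost and shortest window of chromosome 10. Against the dark, the long arms had 0.870 times as many peaks at 8 h and 0.781 times at 24 h. Lower numbers were thus not particular to these windows. Between 24 h and 8 h the chromosomes differed. The number was higher at 24 h in 5 of 6 windows of chromosome 10 and equal in the other, and on chromosome 4 higher in 3 windows, lower in 3 and equal in 1.

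With IAA the windows held more peaks than at 24 h in 7 of 7 cases on chromosome 4, by 1.26 to 1.87 times, and in 4 of 6 on chromosome 10. The long arms had 1.27 times as many peaks with IAA as at 24 h on chromosome 4 and 1.25 times on chromosome 10. With ABA the windows held fewer peaks than at 24 h in 6 of 6 cases on chromosome 10, at 0.739 to 0.910 times. The long arm of chromosome 10 had 0.616 times as many, so each of these windows fell by less than that arm. On chromosome 4 the ABA windows were higher in 4, lower in 2 and equal in 1. Adjacent windows are parts of one list and are not replicates.

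**Figure D3:**
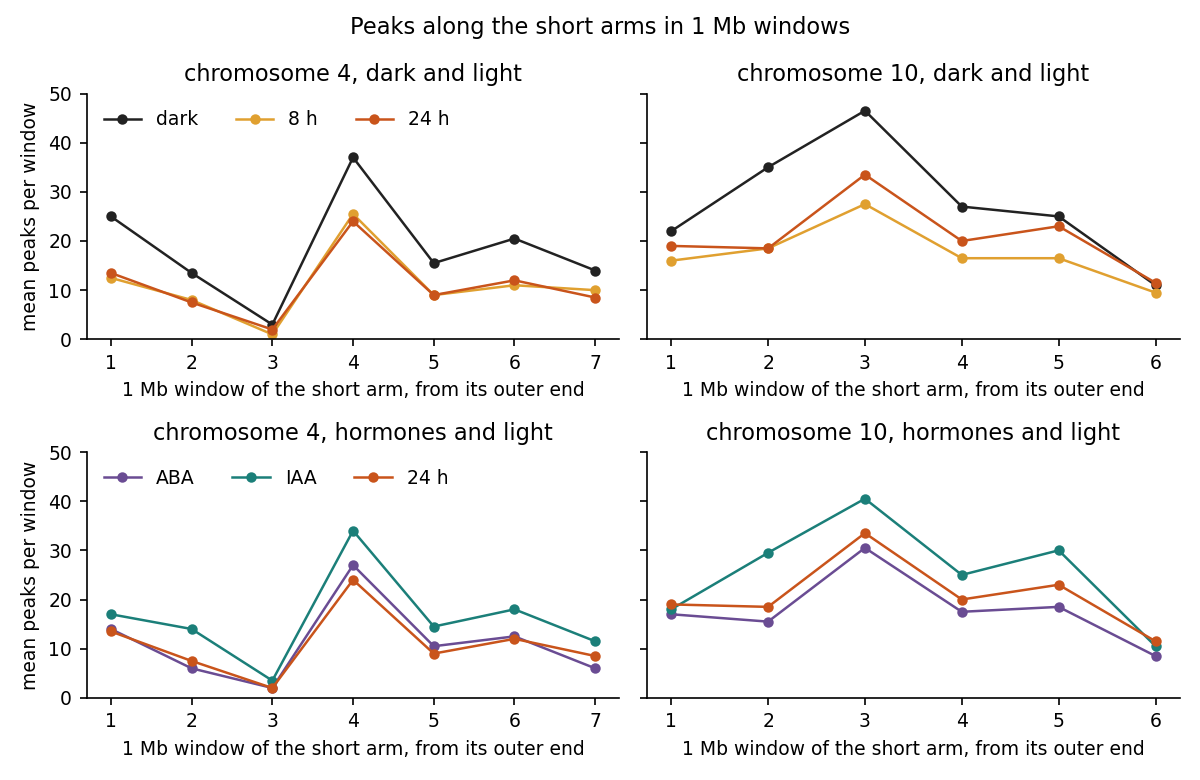
Mean number of peaks per list (y axis) in 1 Mb windows from the outer end of each short arm inward (x axis; the last window of each arm is shorter), with dark, 8 h and 24 h in the upper panels and ABA, IAA and 24 h in the lower ones. The dark line lies above the 8 h line in all 13 windows, and the window with fewest sites, the third of chromosome 4, had 7.

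Sites were then called gained, lost or kept in each comparison. A gained site had peaks in both lists of the first group named and none in the group it was set against, a lost site the converse, and a kept site had a peak in all 4 lists. Shares are of the sites with a peak in at least 1 of the 4 lists.

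Light for 8 h was followed by more loss and less gain on the short arms than on the long arms. Against dark, 8 short-arm sites were gained, or 2.45% (1.25% to 4.77%), where the genome-wide share was 7.12%. In the same comparison 94 were lost, or 28.8% (24.2% to 34.0%), where the genome-wide share was 19.4%. On the long arms 8.14% were gained and 16.6% lost. Short arms minus long arms came to -5.68 points (-7.30 to -3.18) for gains and 12.3 points (7.41 to 17.6) for losses. Losses made up 92.2% of the 102 changed short-arm sites and 67.1% of the 689 changed long-arm sites. Both chromosomes showed it, with 3 gained and 44 lost on the short arm of chromosome 4 and 5 gained and 50 lost on that of chromosome 10.

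The sites lost at 8 h were weaker by median than the kept ones. Their median was 20.0 tags in the dark lists, against 31.5 tags at the 157 kept sites, and 4 of the 94 ranked in the upper 25% of a dark list by q-value. They had a median width of 172 bp, against 281 bp for kept sites. On the long arms the 462 lost sites had a median of 18.5 tags, against 24.0 at kept sites, and 5 of the 462 ranked in the upper 25%. By q-value the median lost site stood at percentile 39.1 on the short arms and 23.3 on the long arms. The strongest lost site by tags was chr10:5265404-5265666, with no peak at 8 h, where 67 and 70 tags were needed, against 78 and 79 tags in the dark. It stood on the highest background of the short arms, 61.5 units. It had no peak with ABA, where 88 and 85 tags were needed, 105 and 107 tags with IAA and 108 and 103 at 24 h. Next came chr4:4744435-4744839, a site on the lowest background, with no peak at 8 h, where 13 and 14 tags were needed, against 34 and 35 tags in the dark. It had 26 and 26 tags with ABA, 25 and 22 with IAA and no peak at 24 h. It shared its mean of 34.5 tags in the dark with chr4:5602314-5602560, which also had no peak at 8 h.

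Besides the small site in the chromosome 10 cluster, the strongest site gained at 8 h was chr4:1125773-1125903. It had 20 and 22 tags at 8 h, where 20 and 21 were needed, and no peak in any other list. This site stood at the limit of a call.

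At 24 h the short arms had gained more sites than they had lost relative to 8 h. In this comparison 27 sites were gained, or 11.5% (8.02% to 16.2%; 8.20% genome-wide), and 16 were lost, or 6.81% (4.23% to 10.8%; 12.7% genome-wide). On the long arms 7.48% were gained and 14.1% lost. Short arms minus long arms came to 4.00 points (0.357 to 8.82) for gains and -7.33 points (-10.3 to -3.15) for losses. The gain lay mostly on chromosome 10, with 18 gained and 6 lost, while chromosome 4 had 9 gained and 10 lost.

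The strongest gain at 24 h was the high-background site chr10:5265404-5265666 described above. It was followed by chr10:5039059-5039434, with 49 and 49 tags at 24 h, where 45 and 46 were needed, and no peak at 8 h or in the dark. That site had 46 and 50 tags with IAA and a peak of 57 tags in 1 of the ABA lists. Among the losses, chr10:2553851-2554015 had no peak at 24 h, against 26 and 26 tags at 8 h. Its other values were 28 and 28 tags with ABA, 19 and 19 with IAA and 21 and 21 in the dark. The other was chr4:4402939-4403098, with no peak with either hormone or at 24 h, 25 and 24 tags at 8 h and 20 and 21 in the dark. Its mean of 24.5 tags at 8 h was shared by chr4:5113593-5113789, also lost at 24 h.

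Over the whole step from dark, 24 h of light left 12 short-arm sites gained, or 3.56% (2.05% to 6.12%; 4.80% genome-wide), and 88 lost, or 26.1% (21.7% to 31.1%; 21.0% genome-wide). On the long arms 5.23% were gained and 20.1% lost, and the difference was 5.99 points for losses (1.32 to 11.1) and -1.66 points for gains (-3.43 to 1.01). On chromosome 4, 33.1% of sites were lost on the short arm and 18.9% on the long arm. On chromosome 10, 20.8% were lost on the short arm and 22.9% on the long arm, so the short arm lost more than the long arm on chromosome 4 and less on chromosome 10. A strong site lost at 24 h, beside chr4:4744435-4744839, was chr4:5602314-5602560. It had 35 tags in 1 ABA list, 36 and 33 with IAA, 33 and 36 in the dark and no peak at 8 h or 24 h.

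The 94 sites lost at 8 h were followed into the other groups. With ABA 25 of them, or 26.6% (18.7% to 36.3%), had a peak in both lists, against 10.8% (8.31% to 14.0%) of the 462 such sites on the long arms and 15.5% of the 5635 genome-wide. With IAA 40 of the 94 had one, or 42.6% (33.0% to 52.6%), against 35.5% (31.3% to 40.0%) on the long arms and 36.7% genome-wide. At 24 h it was 17 of 94, or 18.1% (11.6% to 27.1%), against 22.3% (18.7% to 26.3%) on the long arms and 20.8% genome-wide. The intervals of the short and long arms were thus apart only for ABA. The lost sites of the short arms also stood at a higher median percentile by q-value, as given above. The part of this in the ABA difference was not tested.

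Treatment with ABA was followed by nearly as many gains as losses on the short arms. Against 24 h, 32 sites were gained, or 12.9% (9.29% to 17.6%; 5.26% genome-wide), and 35 were lost, or 14.1% (10.3% to 19.0%; 27.9% genome-wide). On the long arms 3.84% were gained and 33.3% lost. Short arms minus long arms came to 9.06 points (5.33 to 13.9) for gains and -19.2 points (-23.5 to -13.9) for losses. Losses made up 52.2% of the changed sites on the short arms and 89.7% on the long arms. On the short arm of chromosome 4, 20 were gained and 16 lost, and on that of chromosome 10, 12 were gained and 19 lost.

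The sites gained with ABA were weak ones, with a median of 23.0 tags in the ABA lists, where a call took at least 16. By q-value their median stood at percentile 26.2, and 0 of the 32 ranked in the upper 25% of an ABA list. The 77 sites gained on the long arms were alike, with a median of 23.0 tags and percentile 24.0, and 3 of them in the upper 25%. The strongest gain on the short arms was chr10:5748886-5749049, with 35 and 33 tags with ABA, where 30 and 29 were needed, and no peak in any other list. Next came chr10:2686491-2686663, with 32 and 30 tags with ABA and no peak at 8 h or 24 h. That site also had 37 and 38 tags with IAA and 30 and 30 in the dark, so it was absent only in the light-only lists. Beside the high-background site, the strongest loss was chr10:5149198-5149392, with no peak with ABA or in any other group, against 40 and 40 tags at 24 h, where 40 and 40 were needed.

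Treatment with IAA was followed by gains. Against 24 h, 58 short-arm sites were gained, or 19.0% (15.0% to 23.7%; 16.3% genome-wide), and 7 were lost, or 2.29% (1.11% to 4.65%; 4.74% genome-wide). The long arms were close to this, with 16.8% gained and 4.80% lost, and the difference was 2.17 points for gains (-2.08 to 7.13) and -2.51 points for losses (-3.98 to -0.0372). The gains were split evenly, with 28 on chromosome 4 and 30 on chromosome 10, while 1 site was lost on chromosome 4 and 6 on chromosome 10.

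The strongest gain with IAA was chr10:5747379-5747564, with 68 and 64 tags with IAA, where 60 and 62 were needed, and no peak elsewhere. It stood on 53.5 background units. A clearer margin was seen at chr4:2182123-2182304, with 59 and 56 tags with IAA, where 34 and 35 were needed, and no peak in any other list, 95794 bp from its nearest neighbour. Beside chr10:5149198-5149392, the strongest loss was chr10:3800502-3800806, with no peak with IAA, against 25 and 25 tags at 24 h. That site had 23 and 23 tags with ABA, 29 and 30 in the dark and 28 and 28 at 8 h.

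**Figure D4:**
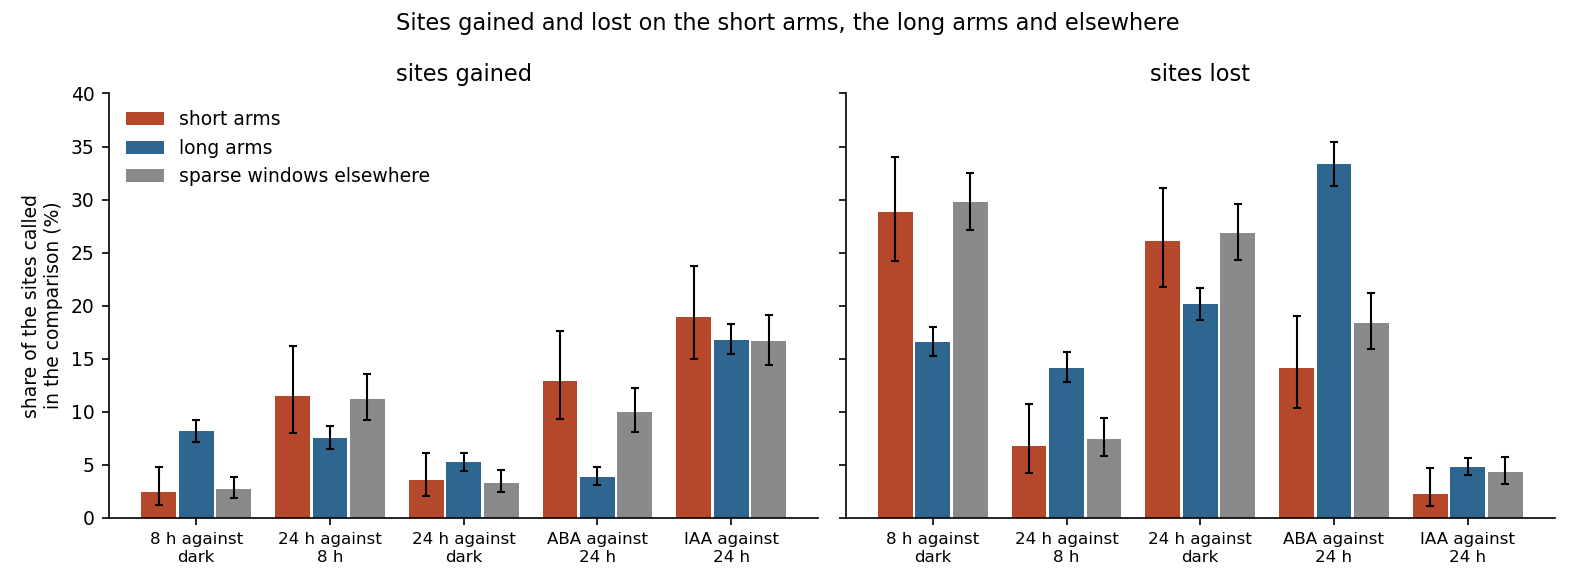
Sites gained (left) and lost (right) as per cent of the sites called in each comparison, on the short arms, the long arms and in sparse windows of the other chromosomes, with 95% Wilson intervals. The short-arm bars stand with the sparse windows and apart from the long arms for losses at 8 h against dark (28.8%, 16.6% and 29.7% in short arms, long arms and sparse windows).

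Because the lists need different numbers of tags for a call, the counts were repeated at a common relative height, with a peak counted only when its tags would have been enough in every list. With the lists scaled by their median tags at sites in all lists, 8 h against dark left 10 gained and 63 lost on the short arms, or 86.3% losses, and 343 gained and 185 lost on the long arms, or 35.0% losses. Genome-wide 49.8% of the changed sites were losses on this scale. For ABA against 24 h the balance on the short arms turned to 41 gained and 23 lost, with 142 gained and 426 lost on the long arms. These were 35.9% losses on the short arms, against 68.2% genome-wide. With the lists scaled by relative library size, 8 h against dark gave 6 gained and 97 lost on the short arms, or 94.2% losses, and 195 gained and 494 lost on the long arms, or 71.7%, with 76.4% genome-wide. Losses thus outnumbered gains on the short arms on both scales, while on the long arms the balance at 8 h turned with the scale. On the scale of relative library size the ABA comparison gave 18 gained and 46 lost on the short arms, or 71.9% losses, and 52 gained and 750 lost on the long arms, or 93.5%, with 88.8% genome-wide. In lists of equal length, the 12659 peaks of each list with the lowest q-values, ABA against 24 h gave 24.7% gains and 6.98% losses on the short arms, and IAA against 24 h gave 14.9% gains and 11.3% losses. The balance of gains and losses with ABA on the short arms therefore depended on the scale, while the share of losses among the changed sites was below that of the long arms on both scales. The relative library size was highest with ABA, at 0.888 to 0.929, and lowest in the dark, at 0.517 to 0.533.

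The arms were also set beside other sparse parts of the genome. The other chromosomes held 44 windows of 1 Mb with at most 40 sites, out of 319, and these had 1235 sites. In the sparse windows 8 h against dark gave 29 gained and 321 lost sites, so that losses made up 91.7% of the changes, against 92.2% on the short arms. For 24 h against 8 h the sparse windows had 91 gained and 60 lost sites, or 39.7% losses, against 37.2% on the short arms. ABA against 24 h gave 81 gained and 149 lost, or 64.8% losses (58.4% to 70.7%), against 52.2% (40.5% to 63.7%) on the short arms. The regions between the arms of chromosomes 4 and 10, which include the centromeres, had 541 sites, with 5 gained and 161 lost at 8 h against dark. There 48 were gained and 23 lost at 24 h against 8 h, and 54 gained and 46 lost with ABA, or 46.0% losses. The share of losses at 8 h, and at 24 h against 8 h, was thus close in the short arms and the sparse windows. With ABA it was higher in the sparse windows, but their interval overlapped that of the short arms. Between the arms it was lower than on the short arms with ABA. Of all peaks of a list as deposited, the short arms held 1.43% with ABA, 1.19% in the dark, 1.14% with IAA, 1.07% at 24 h and 0.898% at 8 h. In the same order of groups the sparse windows held 4.44%, 4.00%, 3.62%, 3.58% and 3.10%. Between the arms the shares were 2.21%, 1.75%, 1.58%, 1.47% and 1.23%. The order of the groups was thus not particular to the short arms.

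At the 112 short-arm sites and 808 long-arm sites with a peak in all 10 lists, the tags over the summit could be compared with no gain or loss of a call. These sites had all passed the call in each list, so weaker sites and sites lost in some group are not among them. The median over the short-arm sites was 33 and 31 tags with ABA, 33.5 and 34 with IAA, and 34 and 35 in the dark, 27.5 and 28.5 at 8 h and 31 and 30 at 24 h. The medians on the long arms were 27 and 27 with ABA, 33 and 33 with IAA, and 28 and 29 in the dark, 31 and 33 at 8 h and 30.5 and 30 at 24 h. The short arms were above the long arms in the dark and with ABA, below them at 8 h, and close to them at 24 h and with IAA.

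Site by site, the median log2 ratio of tags at 8 h over dark was -0.16 (-0.25 to -0.08) on the short arms and 0.13 (0.11 to 0.16) on the long arms, where the median over all 9508 such sites of the genome was 0.07. All such ratios are of unscaled tags, so their sign and the counts of sites by ratio depend on the scale. The difference between the arms does not change with a scaling common to a list. In unscaled tags, 78 of the 112 short-arm sites were lower at 8 h and 32 were higher. At 23 of the 112 sites the log2 ratio was -0.5 or less, and at 0 it was 0.5 or more. On the long arms these were 1.36% and 15.0% of the sites. On chromosome 4 the short-arm median was -0.27 and on chromosome 10 it was -0.12.

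For 24 h over 8 h the median was 0.06 (0.03 to 0.10) on the short arms and -0.02 (-0.06 to 0.00) on the long arms. The chromosomes differed here as they did in peak number, with a median of 0.08 and higher tags at 48 of 68 sites on chromosome 10, and a median of 0.00 with 21 of 44 sites higher on chromosome 4. For 24 h over dark the medians were -0.07 (-0.21 to 0.00) on the short arms and 0.12 (0.10 to 0.15) on the long arms.

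For ABA over 24 h the median log2 ratio was -0.04 (-0.09 to 0.08) on the short arms and -0.17 (-0.19 to -0.15) on the long arms, with a genome-wide median of -0.12. Relative to that shift the short arms lay above the genome and the long arms below it. For IAA over 24 h it was 0.11 (0.09 to 0.17) on the short arms and 0.10 (0.07 to 0.11) on the long arms, with a genome-wide median of 0.09, so both arms moved with the genome.

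**Figure D5:**
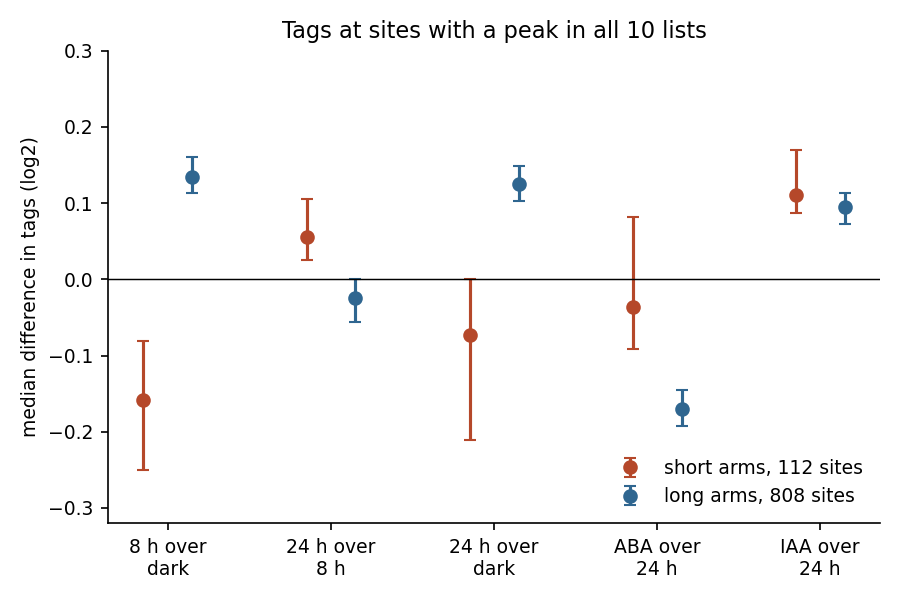
Median log2 ratio of tags over the summit (y axis) in the 5 comparisons (x axis), over the 112 short-arm and 808 long-arm sites with a peak in all 10 lists; bars are 95% order-statistic intervals over sites. The short-arm and long-arm intervals are apart for all comparisons but IAA over 24 h.

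Short-arm peaks were also ranked by q-value among all peaks of their own list. The lists differ in length and in the tags a call needs, so that percentiles of different groups are not on one scale and are read only beside the long arms. By q-value, the median short-arm peak stood at percentile 57.3 and 55.4 of the ABA lists and 49.4 and 53.3 of the IAA lists. In the light series it stood at percentile 59.5 and 58.5 in the dark, 44.9 and 46.5 at 8 h and 51.8 and 49.4 at 24 h. The median long-arm peak stood between percentile 41.2 and 48.5 over the 10 lists, a range that held the short-arm medians of the 8 h lists and lay below those of the other 8 lists.

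The local background in the control track was less often raised on the short arms than on the long arms, mainly on chromosome 4. It lay above the lowest level at 45.1% of short-arm peaks and at 54.6% of long-arm peaks. On chromosome 4 these shares were 43.4% and 57.5%, and on chromosome 10 they were 46.4% and 47.9%. In the sparse windows of the other chromosomes the share was 46.0%. A few short-arm sites stood on a very high background, with 9 sites on chromosome 4 and 24 on chromosome 10 over 12 units. The loss at 8 h was counted by background. Among the short-arm sites of the dark lists, 34.7% of the 150 on the lowest background were lost at 8 h, 34.0% of the 106 between that level and 12 units, and 40.0% (19.8% to 64.3%) of the 15 above it.

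Last, the groups were combined. At 248 short-arm sites every group was either present in both lists or absent from both. Of these, 112 were present in all 5 groups. Another 33 were present in the dark alone, or 13.3% (9.63% to 18.1%), against 9.26% (8.08% to 10.6%) on the long arms, and 18 with IAA alone, or 7.26% (4.64% to 11.2%), against 6.22% (5.25% to 7.35%). The intervals of the arms overlapped for both. A further 15 were present in every group but ABA. That last pattern took 6.05% (3.70% to 9.74%) of these sites on the short arms, against 16.7% (15.1% to 18.3%) on the long arms. The patterns of the dark with ABA (7 sites) and of the dark with IAA and ABA (8 sites) took 2.82% and 3.23% on the short arms, against 0.441% each on the long arms. Altogether, 15 short-arm sites, or 6.05%, were present in the dark and with ABA and absent from both light-only groups, against 18, or 0.882%, on the long arms. Sites present in the dark and absent at both 8 h and 24 h made up 61 of the 248, or 24.6%, against 13.4% of the corresponding 2041 sites on the long arms. Genome-wide shares of these patterns are not given here. The long arms lost 33.3% of sites with ABA against 24 h, above the genome-wide 27.9%. A contrast with the long arms alone can therefore be wider than one with the genome.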

How the data were processed

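ATAC-seq of rice seedlings was used as peak lists. The authors trimmed the reads, aligned them with Bowtie2 (2.3.2) to MSU7.0, filtered them with SAMtools (1.9) and called peaks with MACS2. They described no shift for the Tn5 cut. Indica reads were thus aligned to a japonica genome, and the filter on mapping quality removes reads from repeats, which are common on these arms. The mappable length is unknown.

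The deposited lists give the fold over background (a ratio), a −log10 p-value, a −log10 q-value and a score, which was not used. From the deposited fold and p-value of a peak, its whole-number tag count at the summit and the background beneath it were calculated. This worked for all 200537 peaks, and the recomputed −log10 p missed the deposited one by at most 0.000203. On 5000 simulated peaks 100% were recovered. The unit of background was constant within a list, and the lowest background was 6 units in every list. The absolute depth is unknown. The number of tags needed for a call is the fewest that pass the lowest −log10 p of the list over that background.

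Sites were merged with an overlap of 1 bp. Named sites were, on each chromosome, the 3 strongest, the widest and the most isolated site in all lists, and in each comparison the 2 strongest gained and lost. These members, lists and rules were chosen with earlier results of these data known. Pairs of lists were counted as 1 sample, so no test was run. Alternatives were a −log10 q of at least 5, arm limits moved by 1 Mb, each chromosome alone, lists of equal length, base pairs, other references, other rules of presence and each list left out. Gene context, base composition and motifs were not analysed here, because no genome of this build was used. Python 3.11.15, numpy 2.4.6, pandas 2.3.3, scipy 1.17.1 and matplotlib 3.10.9 were used.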

Additional observations from a re-analysis of the deposited data

How the results depend on the processing

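No paired analysis was possible because the 2 lists of a group shared most of their tags and no test was run. Of 166 values under other settings, 126 stayed within the interval of the reported value, 40 lay outside it and 0 reversed a difference whose interval excluded 0. Only differences whose interval excluded 0 could be counted as reversed. Most of the 166 were shares of gained or lost sites, which have no sign to reverse. The balance of gains and losses with ABA, which turned with the scale, is therefore outside that count. The causes of the following moves were not tested, beyond what each setting changes by construction. In lists of equal length the share of arm peaks on the short arms differed by -6.45 points at 8 h against dark and by -4.39 points at 24 h against dark. With all other chromosomes as the reference, which makes the share itself small, these were -0.337 points at 8 h against dark and 0.406 points for ABA against 24 h. On chromosome 10 alone the difference of 24 h from 8 h was 3.60 points.

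For 8 h against dark, 40.8% of short-arm sites were lost when a call in either list was enough. For 24 h against 8 h, gains were 17.8% in lists of equal length and 17.9% with either list, and losses were 13.2% when a peak had to cover at least 50% of the site. For 24 h against dark, gains were 6.82% with either list. Losses in that comparison were 20.2% at equal length, 20.4% at a common relative height, 37.4% with either list, 31.6% with the cover of 50%, 33.1% on chromosome 4 and 20.8% on chromosome 10.

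For ABA against 24 h, gains were 8.63% at a −log10 q of at least 5, 24.7% at equal length, 17.9% at the common relative height, 19.6% on chromosome 4 and 8.22% on chromosome 10. Losses were 21.3%, 6.98% and 10.0% under the first 3 of these settings, 22.2% with either list and 21.8% with the cover of 50%. At a common height by relative library size, a setting chosen after seeing the data, ABA gains were 7.93% and losses 20.3%. For IAA against 24 h, gains were 14.9% at equal length, 31.0% with either list and 24.4% with the cover of 50%. IAA losses were 11.3% at equal length, 6.01% at the common relative height, 6.86% with either list and 0.781% on chromosome 4. The comparison with sparse windows and with the regions between the arms was also chosen after seeing the data.

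The short-minus-long difference in median log2 tags for 8 h over dark was -0.208 at a −log10 q of at least 5 and -0.414 on chromosome 4. For 24 h over 8 h it was 0.0242 on chromosome 4, and for 24 h over dark -0.339 on chromosome 4 and -0.120 on chromosome 10.

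Leaving out 1 list at a time, so that a single list stood for its group, gave losses at 8 h against dark of 30.7% to 38.9%, at 24 h against 8 h of 8.26% to 11.5%, at 24 h against dark of 27.5% to 35.0%, with ABA of 15.3% to 20.2% and with IAA of 3.72% to 5.63%. Gains were 12.9% to 17.0% at 24 h against 8 h and 20.5% to 28.0% with IAA. The median log2 difference for IAA over 24 h was -0.0106 to 0.0527, with the lower value without list 2 of IAA and the higher without its list 1. The shares that moved by over 1.5 times were gains at 8 h against dark, at 3.68% without list 2 of 8 h and likewise without list 2 of the dark, gains at 24 h against dark, at 5.42% without list 1 of 24 h, losses at 24 h against 8 h, at 11.5% without list 1 of 24 h, and IAA losses, at 4.10% and 3.89% without list 1 or list 2 of IAA and 3.72% and 5.63% without list 1 or list 2 of 24 h.

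The absolute depth is unknown, and the absence of a peak says only that a site stayed below the tags a call needs. Gene context, base composition and motifs, with the whole site or a 1 kb promoter, were not run.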
